A study of Homo sapiens with 6 samples.

Results

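H3K9me3 peaks called by ChIP-seq 6 h after PC-3 cells were given TGF-β1 were set against those of untreated PC-3 cells. All peaks outside chromosome Y were taken, namely 1220 at 6 h and 1237 in the control, together 2457 of the 2826 peaks of the whole series. A further 97 control peaks on chromosome Y were left out, and the 6 h list had 0 there. PC-3 is an established human line grown from a bone metastasis of a prostate adenocarcinoma. Both groups were deprived of serum for 24 h. The 6 h cells then received TGF-β1 at 5 ng/mL and the control cells received none. The antibody recognises histone H3 trimethylated at lysine 9. Each condition had 1 ChIP library and 1 input library. There is thus no replicate, every difference below compares these libraries and not the conditions, and no test of a difference was possible. The peak lists alone were used, so all values are those of called peaks.

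H3K9me3 is written by the methyltransferases SUV39H1, SUV39H2 and SETDB1 and is bound by HP1 proteins, which compact the chromatin. In most human cells it covers the satellite repeats around centromeres, many retrotransposons and the clusters of KRAB zinc finger genes. It usually forms broad domains rather than narrow peaks. TGF-β1 binds the receptors TGFBR2 and TGFBR1, which phosphorylate SMAD2 and SMAD3. In epithelial cancer cells the pathway is known for driving epithelial-mesenchymal transition.

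The 6 h list was about as long as the control list, but a larger share of its peaks was called with low certainty. It covered 375.8 kb of the genome, against 367.2 kb in the control. The median width of a peak was 236 bp in the control list and 263 bp in the 6 h list. The median fold enrichment at the summit, which is the ratio of ChIP fragments to the local background as the authors' peak caller gave it, was 4.10 at 6 h and 3.80 in the control. Folds belong to their own list, so a difference between them is no measure of a change in the mark. The lists also differed in their −log10 q, the caller's own measure of certainty. A −log10 q under 3 was held by 861 peaks at 6 h (70.6%, exact binomial 95% interval 67.9% to 73.1%) and by 510 control peaks (41.2%, 38.5% to 44.0%). Values of at least 5 were held by 108 peaks at 6 h (8.85%) and by 468 control peaks (37.8%). Intervals here and below reflect counting error alone, since peaks that lie side by side are not independent. Summit pileups, the fragments stacked at a summit, were recovered from the caller's values and had a median of 14 at 6 h and 18 in the control. The genome-wide background was 1.73 fragments at 6 h and 1.89 in the control.

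The lists differed widely near the assembly gaps of hg19, which stand at the centromeres and the large blocks of satellite heterochromatin. Within 2 Mb of a gap lay 417 control peaks (33.7%) and 68 peaks at 6 h (5.57%). Away from gaps lay 820 control peaks and 1152 peaks at 6 h. A local background of at least 10 times the genome-wide level was found at 303 of 1218 control peaks (24.9%) and at 31 of 1205 peaks of the 6 h list (2.57%), counting peaks with a recovered background. The names of the 6 h peaks carry a word for filtered alignments that those of the control peaks lack. Whether that step had a part in the difference near gaps was not tested.

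**Figure D1:**
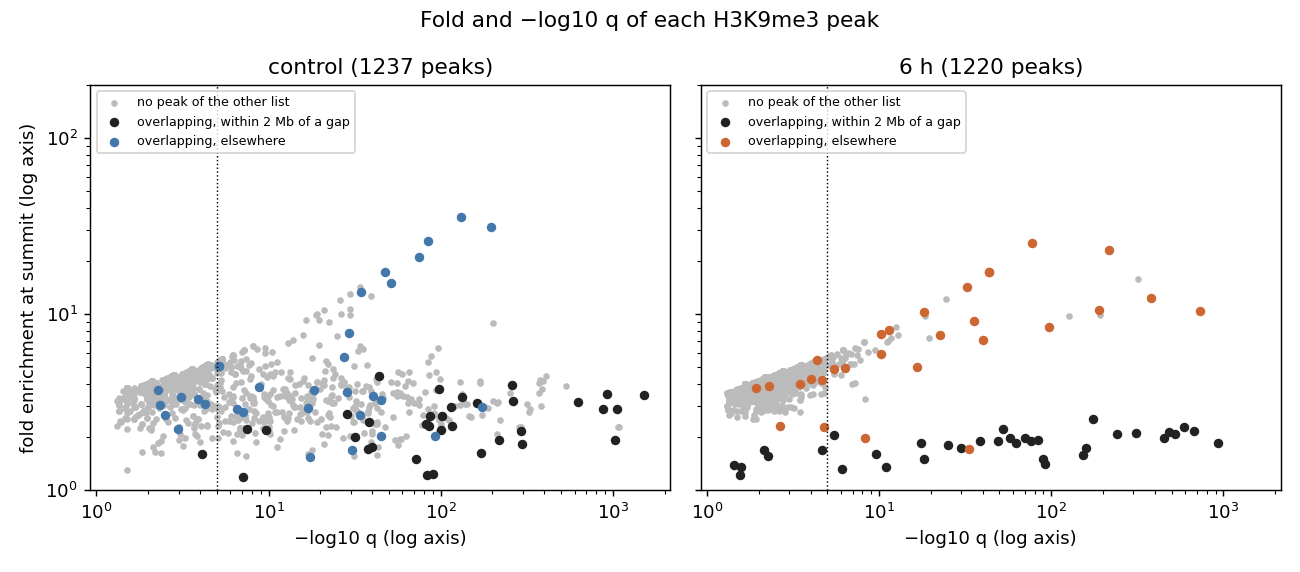
Fold enrichment at the summit (vertical, log axis) against −log10 q (horizontal, log axis) for each control peak (left) and each 6 h peak (right); coloured or black points overlap a peak of the other list, grey points do not, and the dotted line marks a −log10 q of 5. The 6 h peaks crowd to the left of the line, with 108 of 1220 at or to the right of it, and the overlapping peaks within 2 Mb of a gap form a band of low fold.

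In bins of 1 Mb the 6 h peaks were spread over more of the genome, and few bins held 10 or more of them. Of 3053 bins of 1 Mb, 681 held a 6 h summit and 580 a control summit. Both lists had a summit in 264 bins, which is 38.8% of the occupied bins at 6 h and 45.5% of those of the control. The 6 h list alone occupied 417 bins and the control list alone 316. The fullest bin had 39 peaks in the control list and 12 in the 6 h list. At least 10 peaks were held by 20 control bins and by 2 bins at 6 h. It took 166 bins to hold 50% of the 6 h peaks and 78 to hold 50% of the control peaks. The variance of the count per bin was 2.54 times its mean at 6 h and 7.99 times in the control. Away from gaps these ratios were 2.51 and 3.31, and the occupied bins numbered 648 and 528. Bins with at least 5 peaks there numbered 37 at 6 h and 14 in the control. The 108 peaks at 6 h with a −log10 q of at least 5 occupied 75 bins, and the 468 such control peaks occupied 122. These lists differ in length, so the counts of bins do not rank their spread. With the 359 strongest peaks of each list, 270 bins were occupied at 6 h and 80 in the control.

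**Figure D2:**
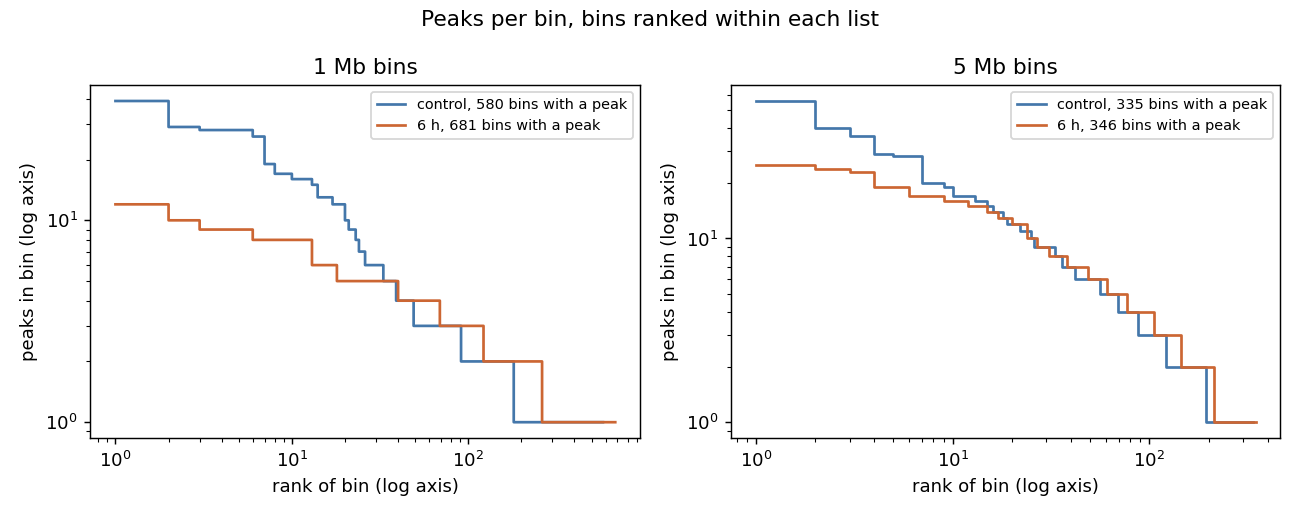
Peaks per bin (vertical, log axis) in bins ranked from the fullest to the emptiest (horizontal, log axis), for bins of 1 Mb and 5 Mb, with 1 line per list. The control line starts higher, at 39 against 12 peaks in bins of 1 Mb, and the 6 h line runs farther to the right there, to 681 against 580 occupied bins.

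In bins of 5 Mb the lists looked more alike. Of 621 such bins, 346 held a 6 h peak and 335 a control peak, and 247 held both. At least 10 peaks were held by 25 of these bins in the control list and 26 in the 6 h list. Away from gaps, 26 bins had at least 10 peaks at 6 h and 9 did in the control. The variance of the count per bin was 6.14 times its mean at 6 h and 10.6 times in the control. Away from gaps these ratios were 6.35 and 4.94, over 1152 peaks at 6 h and 820 in the control. Such a ratio can rise with the number of peaks, so it does not rank the lists by evenness. The 10 fullest bins there held 16.8% of the 6 h peaks and 17.8% of the control peaks. Across the 621 bins the counts of both lists had a Pearson r of 0.34 and a Spearman rho of 0.49. Away from gaps r was 0.54 and rho 0.53. These values describe bins that share the same sequence and the same cell line, and bins are not independent replicates.

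The bins with the largest excess of 6 h peaks lay on chromosomes 8, 10, 5 and 14, away from centromeres. Of the 997 bins of 1 Mb with a peak in either list, 76 (7.62%) held at least 3 more peaks at 6 h and 50 (5.02%) at least 3 fewer. The largest excess at 6 h was on chromosome 10 between 54 and 55 Mb, with 12 peaks against 3 in the control. That bin holds DKK1, a secreted inhibitor of WNT signalling, and MBL2, a lectin of the complement system. On chromosome 5 between 86 and 87 Mb, where RASA1, a GTPase-activating protein for RAS, lies, 8 peaks stood against 1. On chromosome 8 between 116 and 117 Mb, where the transcriptional repressor gene TRPS1 lies, 8 peaks again stood against 1. Another 5 bins had 6 more peaks at 6 h. They began at 76, 78, 88 and 110 Mb of chromosome 8 and at 36 Mb of chromosome 10. None of these 8 bins held a peak within 2 Mb of a gap, and their median −log10 q at 6 h ran from 1.92 to 3.02. The median over the whole 6 h list was 2.42, and the highest −log10 q in these bins was 6.82, on chromosome 10 between 54 and 55 Mb.

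The deepest deficits at 6 h stood beside centromeres. Chromosome 4 between 49 and 50 Mb held 39 control peaks and 0 at 6 h. Chromosome X between 61 and 62 Mb held 28 and 0. Chromosome 2 between 92 and 93 Mb held 26 and 2, chromosome 16 between 46 and 47 Mb held 29 and 9, and chromosome 10 between 42 and 43 Mb held 28 and 9. All control peaks of these 5 bins were within 2 Mb of a gap. The only other bin among the 6 deepest deficits lay away from gaps, on chromosome 8 between 86 and 87 Mb, with 28 control peaks and 1 at 6 h. It holds the tandem array of REXO1L gene copies. In bins of 5 Mb, 80 of 434 occupied bins (18.4%) held at least 3 more peaks at 6 h and 55 (12.7%) at least 3 fewer. The largest excess was on chromosome 8 from 75 to 80 Mb, with 25 peaks against 6. On chromosome 14, 24 peaks against 9 lay from 50 to 55 Mb, 16 against 2 from 55 to 60 Mb and 23 against 10 from 70 to 75 Mb. Chromosome 8 also held 17 against 2 from 110 to 115 Mb and 19 against 6 from 90 to 95 Mb.

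Distances between neighbouring peaks were longer at 6 h, but only with the peaks near gaps included. The median distance from a summit to the next on the chromosome was 533 kb at 6 h (95% interval 465 to 595 kb) and 303 kb in the control (221 to 386 kb). A next summit within 10 kb followed 5.26% of the 6 h summits and 30.8% of the control summits. Distances between 100 kb and 1 Mb made up 41.7% at 6 h and 23.1% in the control. Away from gaps the order of the medians reversed. The median was 540 kb over 1152 peaks at 6 h (474 to 598 kb) and 994 kb over 820 control peaks (785 to 1238 kb). There the share of distances up to 100 kb was 20.4% at 6 h and 20.8% in the control, while that up to 10 kb was 3.72% and 12.05%. Strong peaks, at a −log10 q of 5 or more, were taken with those near gaps included. They lay a median of 3.38 kb apart in the control (468 peaks, 2.86 to 4.35 kb). At 6 h they lay 5200 kb apart (108 peaks, 892 to 9014 kb). Near gaps lay 311 of these control peaks and 30 of these 6 h peaks. With the 359 strongest peaks of each list the medians were 2.76 and 1866 kb. For the peaks away from gaps, the part of the unequal numbers of peaks was not tested.

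**Figure D3:**
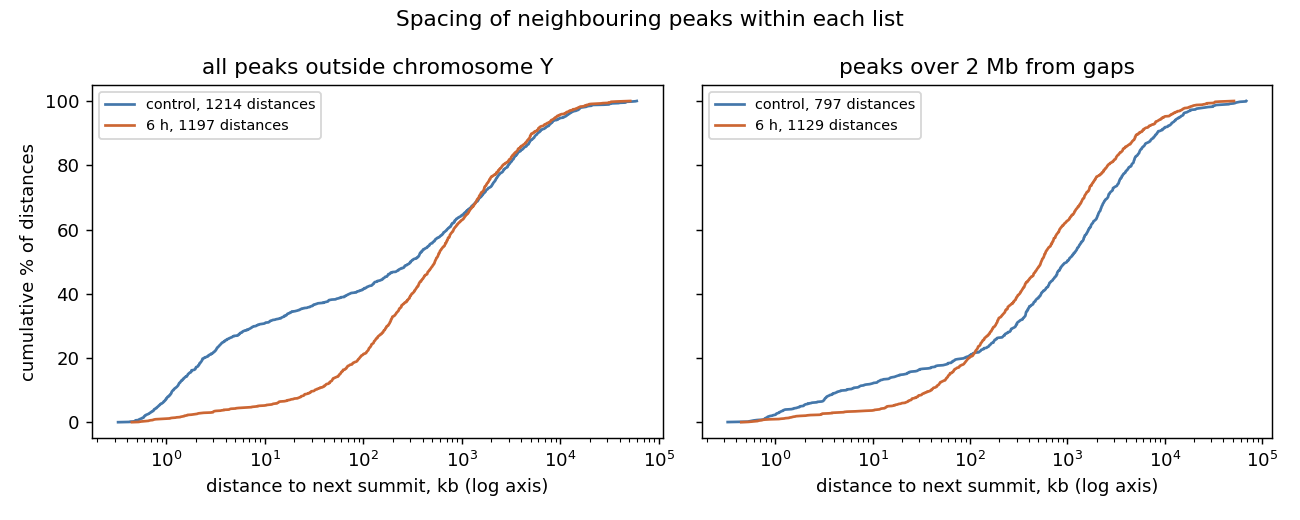
Cumulative share of distances (vertical, percent) by distance to the next summit on the same chromosome (horizontal, log axis), for all peaks and for peaks away from assembly gaps, with 1 line per list. With all peaks the control line rises first, to 30.8% at 10 kb against 5.26% at 6 h; away from gaps the medians change order, to 994 kb in the control and 540 kb at 6 h.

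Peak domains were about equally many in both lists, but those of the 6 h list held fewer peaks per length, except near gaps. A domain was a chain of at least 3 peaks of 1 list with summits no more than 100 kb from the next. The 6 h list had 52 domains with 197 peaks (16.1% of its peaks, 14.1% to 18.3%). The control list had 53 domains with 489 peaks (39.5%, 36.8% to 42.3%). The median 6 h domain spanned 89.8 kb and held 3.70 peaks per 100 kb, and the median control domain spanned 51.2 kb with 14.7 per 100 kb. The control had 34 domains of at least 6 peaks and the 6 h list 6. Of the 52 domains at 6 h, 33 held no control peak, and of the 53 control domains, 33 held no 6 h peak. Within 2 Mb of a gap lay 4 domains at 6 h and 30 in the control, with medians of 62.6 and 28.6 peaks per 100 kb. Domains elsewhere had medians of 3.50 at 6 h and 10.5 in the control. Away from gaps, domains held 15.2% of the 6 h peaks and 17.2% of the control peaks, shares closer together than those over all peaks.

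The 6 largest domains at 6 h were of unlike kinds. The domain with the most peaks, 9, lay beside the centromere of chromosome 16 at chr16:46388264-46427777, where the control had 23 peaks. The next, with 8 peaks at chr11:65190329-65273487 and 9 control peaks in the same span, covered NEAT1 and MALAT1, a pair of long noncoding RNA genes whose products stay in the nucleus. A domain of 6 peaks at chr10:42384970-42402072 lay beside another centromere, with 14 control peaks. The other 3, of 6 peaks each, lay away from gaps. The domain at chr8:78144255-78420851 stood in a stretch poor in genes, with 1 control peak. That at chr10:54212117-54354945 lay between DKK1 and MBL2, also with 1 control peak. That at chr14:73361885-73556330 took in ZFYVE1, which encodes a zinc finger protein of endomembranes, and the start of RBM25, which encodes an RNA-binding splicing factor, with 2 control peaks. In these 3 domains the highest −log10 q was 3.27 on chromosome 8, 3.01 on chromosome 10 and 3.27 on chromosome 14. Relative to the genome-wide level, the local background had medians of 1.91, 3.63 and 4.94 over their peaks.

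Of the 46 domains of 3 to 5 peaks at 6 h, 9 touched a gene of a set of 11 long genes that was drawn up after the 6 h peaks had been seen, and the other 37 did not. A domain of 5 peaks at chr5:89885430-90070651 lay in ADGRV1, which encodes a very large adhesion receptor of sensory hair cells, and one of 5 peaks at chr8:110347125-110506690 lay around PKHD1L1, and the control had 0 peaks in either. A domain of 4 peaks at chr10:75937261-76085193 lay in ADK, the adenosine kinase gene, with 0 control peaks. Another of 4 at chr8:116533595-116680201 covered TRPS1, and another at chr10:34668544-34821520 lay in PARD3, which encodes a polarity protein, with 1 control peak in each. PCNX1 and SIPA1L1 on chromosome 14 lay in further domains of 4 peaks. The whole set of 11 genes had 5 control peaks and 38 at 6 h, and the choice of genes by their 6 h peaks sets that contrast.

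Of the 7 control domains with the most peaks, 6 stood within 2 Mb of a gap. In order of their peaks they were chr16:46385967-46480330 with 29 peaks against 9 at 6 h, chrX:61683061-61734228 with 28 against 0, chr2:92245007-92325297 with 26 against 1, and chr8:86730669-86833510 in the REXO1L array with 19 against 0. Another 3 had 17 peaks each. Those at chr2:90285437-90482247 and chr4:49093910-49155764 had 0 peaks at 6 h, and that at chr10:42356159-42402104 had 6. The 5S ribosomal RNA array of 1q42 held 6 control peaks and 1 at 6 h.

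The chromosome arms densest in peaks at 6 h were among the denser arms of the control too. Away from gaps, the densest arm was 8q in both lists, with 1.74 peaks per Mb at 6 h and 1.02 in the control. Of its 102 control peaks, 28 lay in the 1 Mb bin of the REXO1L array, where the 6 h list had 1. Next at 6 h came 14q with 1.40 against 0.690, 18p with 1.23 against 0.453, 11q with 0.995 against 0.523 and 10q with 0.815 against 0.397. Across 42 arms the densities of both lists had r = 0.81 and rho = 0.76, a description of arms that share their sequence and the karyotype of the line. As shares of all peaks, 8q held 14.2% of the 6 h list and 9.22% of the control list, and 14q held 10.2% and 5.09%. Of 41 arms with at least 10 peaks over both lists, the share at 6 h was at least 2-fold above the control share on 3 (7.32%) and at least 2-fold below it on 10 (24.4%).

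The 5 highest ratios of the 6 h to the control share were 3.65 on 21q (18 peaks against 5), 2.03 on 18p (20 against 10), 2.01 on 14q (125 against 63), 1.95 on 10p (25 against 13) and 1.93 on 11q (80 against 42). At the other end, 4p held 43 control peaks and 0 at 6 h. The ratio was 0.179 on 17p (3 against 17), 0.203 on 21p (4 against 20) and on 16p (5 against 25), and 0.225 on Xp (2 against 9). Most of these low arms owed their control peaks to sequence near gaps. Away from gaps, 4p held 3 control peaks, 17p held 3 in each list, 21p held none, 16p held 10 and 3, and Xp held 4 and 2. The arms at the top had lower ratios of shares in the peaks away from gaps in 4 of 5 cases, namely 2.42 on 21q, 1.93 on 18p, 1.45 on 14q and 1.36 on 11q, while 10p had 2.44.

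Together 8q, 14q, 11q, 10q and 5q, chosen after the counts were seen, make up 17.2% of the length of all arms. They held 537 of the 1152 peaks at 6 h that lay away from gaps (46.6%, 43.7% to 49.5%). In the control they held 293 of 820 (35.7%, 32.4% to 39.1%), 28 of them in the bin of the REXO1L array. In the −log10 q band from 2 to 3, the shares were 45.8% at 6 h (41.4% to 50.2%) and 39.5% in the control (33.9% to 45.4%). With 1 ChIP library per condition and arms chosen after the counts were seen, neither pair of intervals tests a difference between the conditions. The local background moved with the arm. At 6 h its median over peaks away from gaps was 2.73 times the genome-wide level on 10p, 2.16 on 14q, 2.07 on 10q and 1.59 on 8q, against 1.04 on 13q and 1.14 on 3p. Across 27 arms peak density at 6 h and local background had r = 0.41 and rho = 0.67, and across 26 arms of the control r = 0.21 and rho = 0.51. The part of the local background in the densities was not tested.

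**Figure D4:**
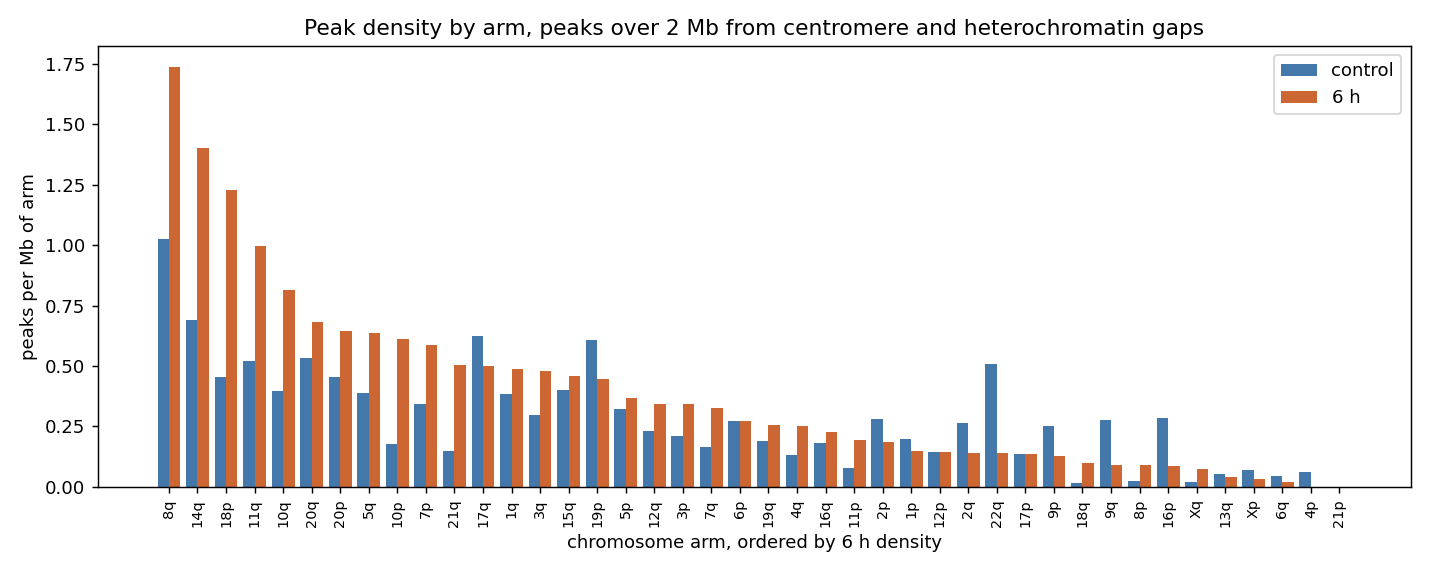
Peaks per Mb of arm (vertical) away from assembly gaps on each of 42 chromosome arms (horizontal, ordered by the 6 h density), with 1 bar per list. On 8q, 14q, 18p, 11q and 10q the 6 h density stands above the control density, with 1.74 against 1.02 peaks per Mb on 8q.

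Few peaks of the lists lay at the same place. Of the 1220 peaks at 6 h, 64 (5.25%) overlapped a control peak by at least 1 bp, and of the 1237 control peaks, 67 (5.42%) overlapped a 6 h peak. The nearest control summit lay a median of 466 kb from a 6 h summit. It was within 10 kb for 7.30% and within 1 Mb for 68.9%, and 78 peaks at 6 h had none within 5 Mb. Overlap went with strength. It was 4 of 324 peaks under a −log10 q of 2, 4 of 537 between 2 and 3, 6 of 52 between 5 and 10, 19 of 28 between 10 and 50, 10 of 10 between 50 and 100 and 15 of 18 from 100 up. The 3 peaks of the last class with no control peak lay on HBB, RN7SL1 and RN7SL2.

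The 108 strong peaks at 6 h fell into a group near gaps and a group elsewhere. Near gaps lay 30, of which 29 overlapped a control peak. Their median fold was 1.91. The local background could be recovered for 16 of them and had a median of 209 times the genome-wide level. Away from gaps lay 78, of which 21 overlapped a control peak (26.9%, 17.5% to 38.2%). Their median fold was 6.16 on a local background of 1.49 times the genome-wide level. There were 67 overlapping pairs from 64 peaks at 6 h. A 6 h peak in MALAT1 overlapped 3 control peaks and the one in HBA2 overlapped 2, so the pairs are not all separate loci. Near gaps the fold was higher at 6 h in 4 of 35 pairs, with medians of 1.85 at 6 h and 2.33 in the control. Elsewhere it was higher at 6 h in 21 of 32 pairs, with medians of 7.59 and 3.41. The 6 h median there was the fold of the MALAT1 peak that entered 3 times. The summit pileup relative to the genome-wide background, in contrast, was higher at 6 h in 10 of the 31 such pairs where it could be recovered. Across those pairs elsewhere the local background had medians of 2.73 at 6 h and 5.10 in the control. The fold and the pileup thus ranked the lists in opposite ways.

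Globin genes carried the 3 highest −log10 q values of the 6 h list away from gaps. HBB encodes the beta chain of adult haemoglobin in red cells and lies on chromosome 11p15. At 6 h it held a peak at chr11:5247807-5248326 with a fold of 10.4, where the control peak at chr11:5247896-5248280 had 2.03. Its summit stood at 677 times the genome-wide background at 6 h and at 586 times in the control, over a local background of 64.3 and 288 times. The pileups were thus closer than the folds. A second 6 h peak at chr11:5246699-5246957, toward the end of HBB, had a fold of 15.9, the highest of the 6 h peaks without a control peak. HBA2, which encodes the alpha chain, held a peak at chr16:223147-223705 with a fold of 12.4 at 6 h, overlapping a pair of control peaks with 1.68 and 2.04. Its neighbour HBA1 had a peak with a fold of 10.6 at 6 h and one with 1.54 in the control, which overlapped by only 19 bp, and the control pileup there could not be recovered.

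Among small noncoding RNA genes read by RNA polymerase III, RN7SK had peaks in both lists, RN7SL1, RN7SL2 and RMRP at 6 h only, and RPPH1 in neither. RN7SK encodes the 7SK RNA, which holds the elongation factor P-TEFb inactive. Its 6 h peak at chr6:52860432-52860712 had a fold of 23.0, and its control peak at chr6:52860477-52860657 had 3.26. The summit pileups were 128 and 119 times the genome-wide background, on local backgrounds of 5.01 and 36.0 times. RN7SL1 and RN7SL2, on chromosome 14, encode the RNA of the signal recognition particle. They had 6 h peaks at chr14:50053310-50053587 and chr14:50329278-50329555, with folds of 9.80 and 9.92 and no control peak. RMRP, the RNA of an RNase that processes ribosomal RNA, had a 6 h peak with a fold of 6.08 and no control peak. These genes were chosen after the peaks had been seen.

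MIR30A, also chosen after its peak was seen, is a microRNA gene. Its 6 h peak at chr6:72113127-72113423 had a fold of 6.93, a −log10 q of 11.1 and a summit of 25 fragments, and the control list had no peak there. The gene yields both strands of the miR-30a hairpin, of which the 5p strand belongs to a family known to restrain epithelial-mesenchymal transition. The mature sequences are shown to identify the locus, as given by RefSeq on GRCh38.p14, 5′ to 3′, with the seed (bases 2 to 8) in capitals.
hsa-miR-30a-5p: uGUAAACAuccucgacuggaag
hsa-miR-30a-3p: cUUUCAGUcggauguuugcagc
The seeds of the strands differ, and a peak of the mark over the gene gives no level of either RNA.

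Genes known for abundant messenger RNAs in some cell types held further 6 h peaks, but no RNA level of PC-3 cells was looked at here. ACTB, the cytoskeletal beta-actin gene, had a fold of 7.27. B2M, the light chain of MHC class I, had 2 peaks with 6.28 and 7.03. UBB, a polyubiquitin gene, had 2 with 4.66 and 5.87. S100A8 and S100A9, which encode the subunits of calprotectin in neutrophils, had 7.70 and 6.97. None of these 5 genes held a control peak. FTH1, the heavy chain of ferritin, has a span that overlaps that of BEST1. FTH1 had 2 peaks at 6 h with 3.67 and 3.32 and 1 control peak with 3.86. That control peak overlapped neither of these 2, but it overlapped a 6 h peak in BEST1 with 4.27. This set of 6 genes, written after peaks had been seen, had 9 peaks in the 6 h list and 1 in the control list. Among long noncoding RNA genes, NEAT1 had 5 control peaks and 6 peaks at 6 h, with highest folds of 5.74 and 5.93. MALAT1 held 2 at 6 h with 7.59 and 7.35, and 3 in the control from 2.68 to 2.88. Its summit pileups, 26.7 and 23.8 times the background at 6 h, lay inside the range of 15.9 to 30.2 in the control.

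**Figure D5:**
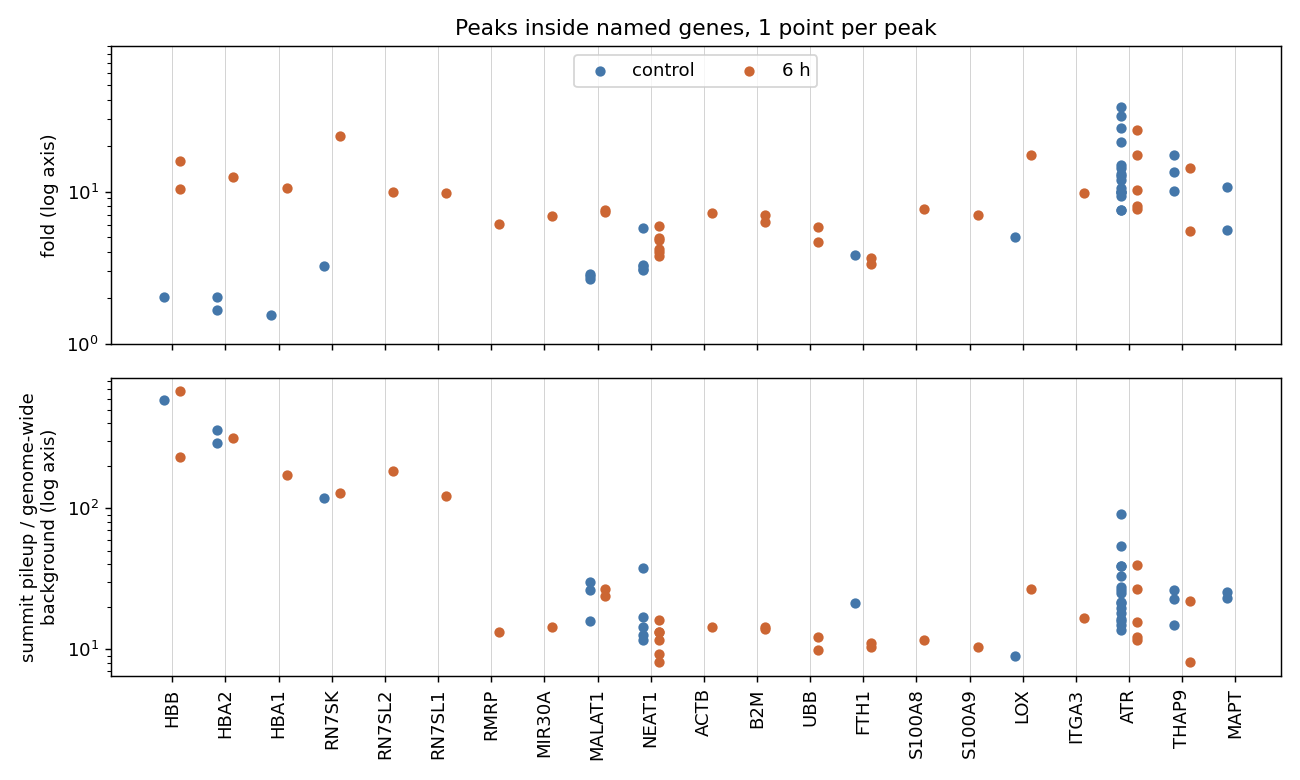
Fold enrichment (top, log axis) and summit pileup relative to the genome-wide background (bottom, log axis; left out for the HBA1 control peak, where it could not be recovered) of each peak inside named genes, with 1 point per peak and 1 colour per list. For RN7SK the fold is 23.0 at 6 h and 3.26 in the control while the pileups are 128 and 119; HBB, HBA2 and MALAT1 also lie closer in pileup than in fold.

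At LOX the 6 h peak stood above the control peak in pileup as well as in fold. The gene encodes lysyl oxidase, which crosslinks collagen and elastin. Its 6 h peak at chr5:121412506-121413174 had a fold of 17.2 and a summit pileup of 26.7 times the genome-wide background. The control peak at chr5:121412659-121413174 had 5.05 and 9.01 times. ITGA3 encodes the alpha-3 subunit of a laminin receptor. It had a 6 h peak at chr17:48163177-48163447 with a fold of 9.74 and no control peak. Also among the 6 highest folds at 6 h without a control peak were ADAMTS3, a procollagen protease, with 8.44, and chr2:221410943-221411183, with 12.1 and no gene named here.

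ATR, the checkpoint kinase of the replication stress response, held the highest folds of both lists. At 6 h it had 5 peaks with folds from 7.70 to 25.3, and in the control 16 peaks with folds from 7.53 to 35.7. All 5 peaks at 6 h overlapped a control peak, and 9 pairs over the genome away from gaps had both edges within 10 bp of each other. THAP9, a gene descended from a DNA transposase, had 2 peaks at 6 h with folds of 5.50 and 14.3 and 3 in the control with 10.0, 13.3 and 17.4. MAPT, which encodes the microtubule protein tau, had 2 control peaks with 10.7 and 5.63 and none at 6 h. At these 3 genes the 6 h list held fewer peaks. The genes were chosen after their peaks had been seen, in part for high folds of control peaks without a 6 h peak. That choice favours such a contrast.

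Gene clusters known for H3K9me3 in other cells were looked up in both lists, whose mean density over the genome was 0.402 peaks per Mb at 6 h and 0.407 in the control. The KRAB zinc finger cluster of 19p12, between 20 and 24 Mb, had 0 peaks in both lists. That of 19q13.4, between 52 and 59 Mb, had 4 at 6 h (0.571 per Mb) and 2 in the control (0.286 per Mb), none with a −log10 q of 5. The protocadherin cluster of 5q31 had 0 in both. Of 14 genes of the TGF-β pathway and of epithelial-mesenchymal transition, 1 held a peak. It was CDH2, the gene of N-cadherin, with a fold of 4.30 at 6 h and no control peak. Its −log10 q of 2.24 was under the median of the 6 h list, 2.42. The share of all genes that hold a peak was not computed, so the count is not set against a background.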

How the data were processed

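H3K9me3 ChIP-seq peak lists, 1 per condition and not pooled, were compared. Per the submitters' processing notes, peaks are on hg19 (GRCh37) and the tools were MACS2 2.1.1.20160309, BWA, Trimmomatic and FastQC 0.11.9. The sources used here do not give the settings of the caller. The deposited columns give peak start, end and summit position, a score, the fold enrichment (a linear ratio), and −log10 p and −log10 q. Names of 6 h peaks carry a word for filtered alignments, those of control peaks do not.

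Summit pileup and local background were solved from fold and −log10 p under a Poisson model with 1 added to each. Pileups came out whole, within 0.01, for 98.8% of peaks at 6 h and 98.5% in the control. The lowest background was taken as genome-wide. Library depth is not in the lists. Bins and distances used summits. Intervals are exact binomial 95% intervals. Python 3.11.15, pandas 2.3.3 and scipy 1.17.1 were used, and the scripts were tested on simulated peaks.

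Members and lists were chosen with earlier results of these data known. Peaks named were the 6 with the highest fold or −log10 q per class, bins the 6 with the largest difference each way, domains the 5 with the most peaks with ties, and arms the 5 at each end. Other loci were chosen after their values were seen. Chromosome lengths, gaps and gene spans on hg19 were entered from general knowledge. All 55 gene symbols were on the same chromosome in RefSeq GRCh38.p14, and 49 had a length within 10%. The spans of UBB, S100A8, SIPA1L1, JMJD1C, DKK1 and MBL2 did not, so peaks there are placed with less certainty.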

Additional observations from a re-analysis of the deposited data

How the results depend on the processing

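Of 55 values under other settings, 21 stayed within the interval or 1.5 times of those reported and 34 moved by more. The causes of the moves were not tested. No paired analysis was possible because neither condition had more than 1 library, and for the same reason no replicate could be left out. Values are given for the control and then for 6 h. With both lists held to a −log10 q of 5 or more, 122 and 75 bins of 1 Mb and 107 and 71 of 5 Mb were occupied, the median distance was 3.38 and 5200 kb, domains held 74.8% and 27.8% of peaks, and 44.4% of 6 h peaks overlapped. With the 359 strongest peaks of each list, these were 80 and 270 bins, 68 and 187 bins, and 2.76 and 1866 kb. Domains held 80.2% and 12.8% of those peaks, and 13.6% of the 6 h peaks overlapped. In that setting 7 of 25 arms were at least 2-fold above and 10 of 25 at least 2-fold below. As reported, 3 of 41 were above and 10 of 41 below. Without peaks near gaps, the control distance was 994 kb and its domain share 17.2%, the overlap was 2.52% and 6 of 33 arms were 2-fold below, against 10 of 41. Peaks joined within 1 kb gave a control distance of 519 kb. Links of 50 kb gave a 6 h domain share of 7.95%, links of 250 kb gave 45.8% and 34.8%, and domains of at least 6 peaks gave 34.4% and 3.36%. A control peak within 10 kb in place of overlap gave 7.46%. Among alternatives chosen after seeing the data, leaving out gaps, ATR and REXO1L gave a control domain share of 12.8%, and peaks with a −log10 q between 2 and 3 occupied 285 and 389 bins of 1 Mb and left 2 of 25 arms 2-fold below.

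The lists hold called peaks only, so a missing peak is no measure of a missing mark. Most 6 h summits stood on 20 fragments or fewer (1064 of 1220 peaks, against 671 of 1237 in the control). Sequence near gaps could not be placed in repeat classes here.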

Other observations

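Many peaks carried exactly the same values as another peak of their list. At 6 h 711 of 1220 peaks (58.3%) shared both fold and −log10 p with at least 1 other, and in the control 578 of 1237 (46.7%). The most frequent pair at 6 h belonged to 48 peaks on 20 chromosomes, with a fold of 4.403, a −log10 q of 2.16 and 11 fragments on the genome-wide background. In the control it belonged to 46 peaks on 19 chromosomes, with a fold of 4.16 and also 11 fragments. Among peaks found in the control only, the pair with the highest −log10 q lay at chr9:69710952-69711259 and chr9:66971101-66971409, with folds of 2.30 and 2.29.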
